A study of Mus musculus with 16 samples.

Results

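Genes of the exocrine acinar cell were followed in isolated pancreatic islets from mice with an induced Insm1 mutation directed to adult beta cells and from their controls. The 33 genes were chosen by name as digestive enzymes, other secreted and granule proteins and regulators of acinar cells. Of these, 27 had a probe set of their own on the Affymetrix mouse expression array used, out of 18193 genes measured in all. Amy2a5, Prss1, Try4 and Try5 were named only on probe sets shared with other genes, and for Amy2a and Pnlip no probe set was named in the annotation used here.

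Acinar cells make up most of the exocrine pancreas and store digestive enzymes, mainly as inactive zymogens, in secretory granules that empty into the ducts. Their enzyme genes are driven together by PTF1, a complex of the helix-loop-helix factor PTF1A, an E-protein partner and RBPJL, which binds an E-box paired with an RBPJ-type site. Acinar cells surround the islets, and isolated islets can carry some of them along.

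There were 16 arrays, 1 for each islet preparation, 8 from Co-Insm1 mutants (RIPcreER; Insm1flox/lacZ) and 8 from controls (RIPcreER; Insm1flox/+). Each mouse had a 25 mg tamoxifen pellet releasing over 21 days from 4 to 5 weeks of age, islets were collected at 8 to 12 weeks, and the strain was a C57BL/6, 129/ola and CBA/J mixture. The controls were described as litter-matched. RIPcreER places an inducible recombinase under the rat insulin promoter, so both groups could lose the floxed allele in beta cells, whereas the lacZ allele was carried by every cell of the mutants only. Replicates 1 to 8 of both groups share numbers in the labels, and same-numbered arrays are called pairs here. Values are the authors' log2 signals, differences are mutant minus control, and n = 8 arrays per group throughout. A gene is called at a Benjamini-Hochberg adjusted p under 0.05 over all 18193 genes in limma, with genotype alone as the main fit and with the replicate number added as a block (the paired fit) beside it.

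Array medians lay between 6.29 and 6.35, and the highest value of the data was 15.39. No detection calls were used. The targeted gene, Insm1, averaged 11.02 in mutants and 11.26 in controls, differed by −0.25 ± 0.11 (SE) and was not called (limma adjusted p = 0.182). It was lower in 5 of 8 pairs, and whether its probe set lies within the deleted sequence was not examined. Beta-cell markers, which define islets, were bright, with a mean over 9 genes of 11.88 to 12.19 on mutant arrays and 12.48 to 12.71 on control arrays. The mean of the 27 acinar genes ranged from 7.47 to 12.47 on mutant arrays and from 10.03 to 12.97 on control arrays, so that acinar transcripts were read on all 16 arrays. In whole islet preparations, fewer acinar cells and less RNA per acinar cell cannot be told apart.

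The DNA before the gene start is shown for 5 of the acinar genes, with letters of the PTF1 type in capitals. These 5 were not drawn at random. All 5 hold both motifs described below, as do 12 of the 23 genes with a window. Each line gives the 250 bases before the RefSeq start on GRCm38.p6, 5′ to 3′ on the strand of the gene. Capitals mark CANCTG, an E-box form, and TGGGAA, the core of RBPJ-type sites, on either strand (CAGNTG and TTCCCA read the other way). Prss2 encodes an anionic trypsinogen, Ctrl a chymotrypsin-like protease, Cel the bile salt-stimulated lipase, Gp2 the main glycoprotein of the zymogen granule membrane, and Klk1 tissue kallikrein.
Prss2 (chr6:41521526-41521775, plus strand): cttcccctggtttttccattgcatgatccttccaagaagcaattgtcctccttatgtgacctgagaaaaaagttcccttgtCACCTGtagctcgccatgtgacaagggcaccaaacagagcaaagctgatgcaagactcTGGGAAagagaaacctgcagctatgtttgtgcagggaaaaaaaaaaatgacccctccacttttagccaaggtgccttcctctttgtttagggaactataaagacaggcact
Ctrl (chr8:105933863-105934112, minus strand): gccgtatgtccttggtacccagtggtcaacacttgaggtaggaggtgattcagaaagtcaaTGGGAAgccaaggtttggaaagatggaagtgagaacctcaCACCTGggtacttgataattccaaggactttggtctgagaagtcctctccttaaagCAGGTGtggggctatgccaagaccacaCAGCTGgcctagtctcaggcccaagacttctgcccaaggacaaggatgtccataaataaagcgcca
Cel (chr2:28563404-28563653, minus strand): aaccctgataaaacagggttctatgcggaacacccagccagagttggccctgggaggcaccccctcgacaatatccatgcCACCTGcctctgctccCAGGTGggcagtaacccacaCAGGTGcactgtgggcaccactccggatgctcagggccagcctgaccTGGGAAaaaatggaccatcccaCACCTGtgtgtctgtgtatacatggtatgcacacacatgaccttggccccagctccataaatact
Gp2 (chr7:119459273-119459522, minus strand): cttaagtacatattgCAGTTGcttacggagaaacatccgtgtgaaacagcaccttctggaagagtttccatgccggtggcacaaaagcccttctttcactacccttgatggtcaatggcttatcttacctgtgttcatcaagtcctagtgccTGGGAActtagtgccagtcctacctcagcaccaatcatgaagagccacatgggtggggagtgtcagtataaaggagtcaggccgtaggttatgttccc
Klk1 (chr7:44225110-44225359, plus strand): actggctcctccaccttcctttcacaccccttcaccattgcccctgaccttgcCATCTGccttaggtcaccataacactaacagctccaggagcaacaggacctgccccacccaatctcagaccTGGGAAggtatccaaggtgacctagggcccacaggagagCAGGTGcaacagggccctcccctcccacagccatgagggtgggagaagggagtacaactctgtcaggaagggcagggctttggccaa

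In Prss2 the E-box letters began 169 bases and the TGGGAA letters 111 bases before the start. In Klk1 TGGGAA began 126 bases before the start, between E-box letters at 197 and 87 bases. Windows were found for 23 of the 27 genes. CANCTG was present in 18 of the 23 (78.3%), against 44.8% of all 32851 windows in the RefSeq table, and TGGGAA in 17 (73.9%) against 21.6%. Both were present in 12 of the 23 (52.2%), against 10.1% of all windows. Each of the 23 genes counted once if any of its windows matched, whereas the RefSeq shares are over windows, which belong to 27025 genes. Matches of both motifs may share bases, and their spacing was not used in the search. Presence of these letters is a description of the sequence and shows no binding.

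All 27 genes had a lower mean in mutant than in control islets, but none was called with genotype alone, where the adjusted p ran from 0.0949 to 0.742. With the replicate block 22 of the 27 fell and 0 rose, while Prss3, Klk1, Reg3a, Reg3b and Rbpjl were not called. Over all 18193 genes, 4.66% were called lower with genotype alone (4.1% higher) and 9.71% with the block (7.88% higher), while 8.76% were called in either direction with genotype alone and 17.6% with the block. The median difference of the 27 was −1.56, a 2.95-fold lower signal, against −0.01 for all genes. With genotype alone 18 of the 27 had an unadjusted p under 0.05, against 11.8% of all genes with such a p and a lower mutant mean. Of the 102 genes called at least 2-fold lower with the block, 20 were among these 27.

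**Figure D1:**
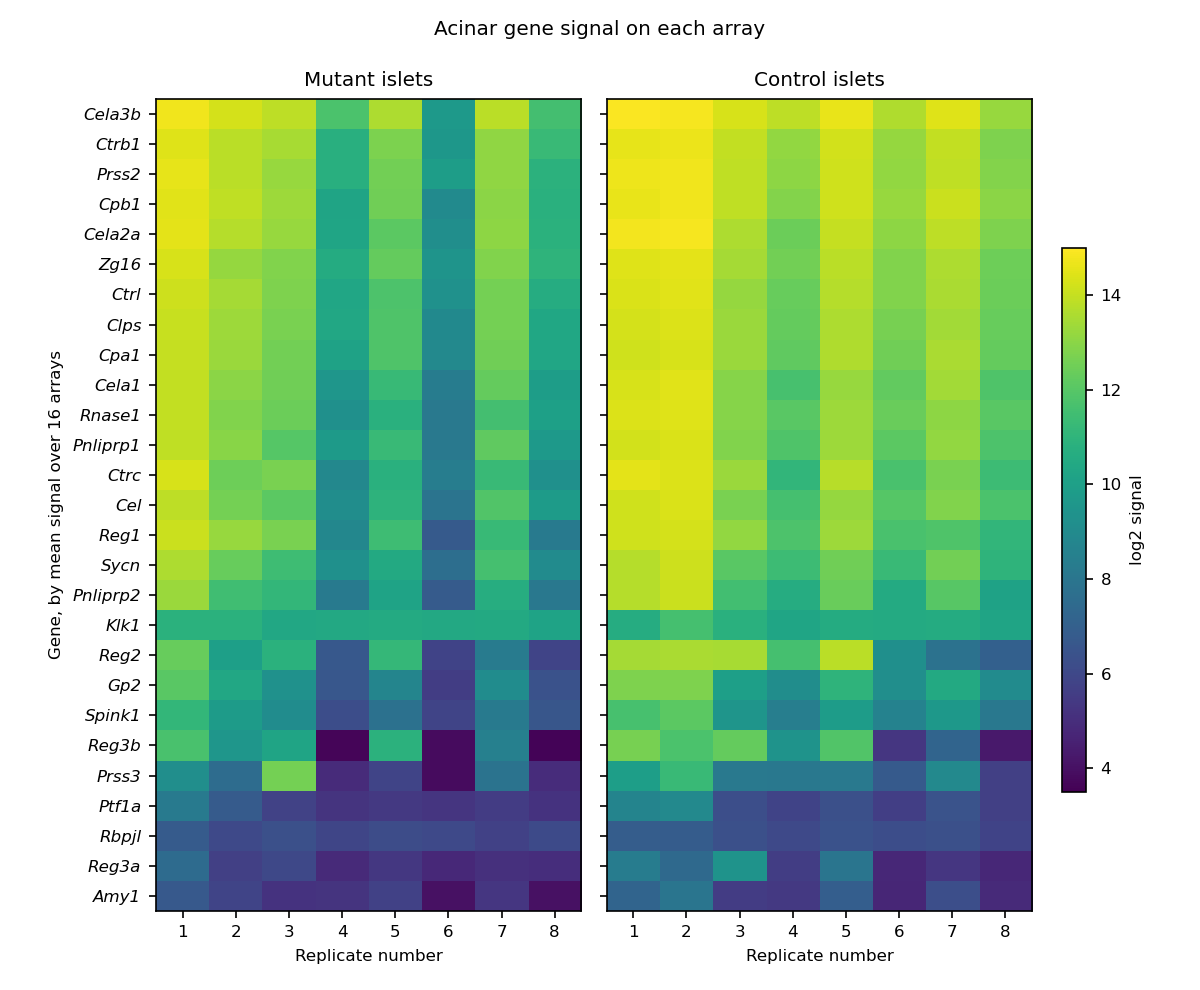
Log2 signal of the 27 genes (rows, brightest at the top) on each of the 8 mutant arrays (left) and 8 control arrays (right), by replicate number. Most rows brighten and dim together, mutant replicates 4, 6 and 8 are the dimmest columns, replicates 1 of both groups and control replicate 2 are the brightest, and the Klk1 row is nearly flat.

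The size of the difference varied from pair to pair. The difference in the mean of the 27 was below 0 in 8 of 8 pairs, at −2.97 in pair 6, −2.17 in pair 4, −1.77 in pair 5, −1.64 in pair 2, −1.53 in pair 8, −0.79 in pair 7, −0.57 in pair 3 and −0.36 in pair 1. Between 25 and 27 of the 27 genes were lower in the mutant array of each pair. By gene, 21 of 27 were lower in 8 of 8 pairs, against 7.21% of all genes, and 4 more in 7 of 8. In pair 1 Prss2 read 14.57 in the mutant and 14.72 in the control, within 1 log2 unit of the highest value of the data. Dimmer genes differed by −0.74 (Gp2), −0.52 (Spink1) and −0.42 (Ptf1a) in this pair. Whether the top of the scale limited the difference was not tested. The 3 lowest mutant means (replicates 6, 4 and 8) lay below all 8 controls, and the 2 highest control means (replicates 2 and 1) above all 8 mutants, with overlap between.

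Trypsinogens are the zymogens of trypsin, which activates the other pancreatic zymogens. Prss2 read 9.92 at the lowest, 12.84 at the median and 14.57 at the highest in mutants, against 12.85, 13.91 and 14.74 in controls. Of the 8 mutant arrays, 4 lay below every control, and 2 controls lay above every mutant, with overlap between. The difference was −1.45 ± 0.58 (SE) with genotype alone (limma adjusted p = 0.142) and −1.45 ± 0.29 with the block (adjusted p = 0.00525). All 4 Prss2 probe sets were lower, with differences of −1.57 to −1.44. Tested singly, 35 of the 43 probe sets that named only 1 of the 27 genes were called lower with the block, against 6.13% of all 45037 probe sets, and 0 with genotype alone, against 2.94%.

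Prss3, another trypsinogen gene, broke from this pattern on 1 array. Its signal ran from 3.84 through a median of 6.72 to 12.61 in mutants and from 5.67 through 8.17 to 11.31 in controls. The 12.61 was mutant replicate 3, 4.44 above the control of its pair, while the other 7 mutants lay below their pair's control. The probe set shared by Prss1, Prss3, Gm10334 and Gm5771 showed the same array apart, at 13.67 in mutant replicate 3 against 8.81 in control replicate 3, and was lower in the mutant in the other 7 pairs. On that array Prss2 read 13.23, below its control at 13.91, so the high signal was not shared by the Prss2 probe set. Prss3 differed by −1.28 ± 0.73 with the block (limma adjusted p = 0.279, and 0.558 with genotype alone), and by −2.10 without pair 3 (adjusted p = 0.00385), a call that 1 pair thus decides. The probe set shared by Try4 and Try5 ran from 8.93 through 13.16 to 14.28 in mutants and from 12.94 through 14.02 to 14.40 in controls, with a difference of −1.53 ± 0.43 with the block (limma adjusted p = 0.0416 over probe sets, and 0.191 with genotype alone).

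Chymotrypsins and elastases cut proteins at other residues than trypsin. All 6 genes measured fell with the block, with differences of −1.83 for Ctrc to −1.34 for Cela3b. Ctrc, which encodes chymotrypsin C in other mammals and is annotated as a transcribed pseudogene in the RefSeq mouse table, ran from 8.37 through 11.06 to 14.30 in mutants, against 11.05 through 12.97 to 14.55 in controls. Its difference was −1.83 ± 0.30 with the block (limma adjusted p = 0.00186, and 0.186 with genotype alone). Cela3b, an elastase family member, ran from 9.68 through 13.68 to 14.77 in mutants and from 13.24 through 14.37 to 14.94 in controls. It fell by 1.34 ± 0.35 (adjusted p = 0.0227, and 0.19 with genotype alone), and its call was lost without pair 4 or pair 8 (adjusted p = 0.06 and 0.0537). The other 3 Cela3b probe sets, which were less bright, differed by −1.76 to −1.57. The differences of Ctrb1, Ctrl, Cela1 and Cela2a were −1.41, −1.49, −1.66 and −1.56.

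Carboxypeptidases trim residues from the ends of peptides, and both genes measured fell with the block. Cpb1 ran from 9.01 through 12.75 to 14.48 in mutants and from 12.89 through 13.98 to 14.75 in controls, and differed by −1.68 ± 0.38 (limma adjusted p = 0.0103, and 0.135 with genotype alone). Cpa1 ran from 8.90 through 12.16 to 13.97 in mutants and from 12.17 through 13.41 to 14.30 in controls, and differed by −1.56 ± 0.30 (limma adjusted p = 0.00445, and 0.139 with genotype alone). For both genes 4 mutant arrays lay below every control and 2 controls above every mutant.

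The genes of fat digestion fell in the same manner, 4 of the 4 measured with the block. Pnliprp2, a lipase related to pancreatic lipase, ran from 6.81 through 10.40 to 13.28 in mutants and from 10.15 through 11.77 to 14.06 in controls, a 3.70-fold lower signal (−1.89 ± 0.32, limma adjusted p = 0.00221, and 0.188 with genotype alone). Clps, the colipase that holds lipase on fat droplets, ran from 8.94 through 12.22 to 14.02 in mutants and from 12.29 through 13.34 to 14.37 in controls. It fell by 1.5 ± 0.31 (limma adjusted p = 0.00691, and 0.153 with genotype alone). The differences of Cel and Pnliprp1 were −1.8 and −1.71.

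Amylases digest starch. Amy1, the gene of the salivary type, was dim: 4.01, 5.27 and 6.69 as lowest, median and highest in mutants, against 4.71, 5.90 and 7.99 in controls. It fell by 0.86 ± 0.18 with the block (limma adjusted p = 0.00678, and 0.321 with genotype alone), and its mean was 5.25 in mutants and 6.11 in controls, both below the array medians. The other probe set that names Amy1, shared with Rnpc3, differed by 0.21 ± 0.11 and was not called (adjusted p = 0.287 over probe sets with the block). The probe set shared by the pancreatic amylase copies Amy2a1 to Amy2a5 ran from 11.55 through 14.21 to 14.85 in mutants and from 14.36 through 14.69 to 14.86 in controls, so 5 mutant arrays lay below every control. All 8 pairs had the lower value on the mutant array, and the difference of −0.91 ± 0.28 was not called (limma adjusted p = 0.0549 over probe sets with the block). Its control arrays lay close to the highest value of the data.

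Among the other secreted and granule proteins, 5 of 6 fell with the block. Gp2 had the second largest difference of the 27. It ran from 5.59 through 8.90 to 12.04 in mutants and from 9.04 through 10.23 to 12.79 in controls, a 4.09-fold lower signal (−2.03 ± 0.29, limma adjusted p = 0.000722, and 0.169 with genotype alone). Rnase1, the secreted ribonuclease, fell by 1.94 ± 0.35 (limma adjusted p = 0.00335) and had the lowest adjusted p of the 27 with genotype alone, 0.0949. Its 5 lowest mutant arrays lay below every control. Sycn and Zg16, which encode granule proteins, had differences of −1.66 and −1.4, and Spink1, the trypsin inhibitor of the granule, of −1.63.

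Klk1 gave different answers on its 4 probe sets. The brightest, 1455977_x_at, ran from 10.18 through 10.48 to 10.85 in mutants and from 10.19 through 10.56 to 11.61 in controls, and differed by −0.12 ± 0.10 with the block (limma adjusted p = 0.469 over genes and 0.507 over probe sets). The next brightest, 1415837_at, ran from 5.66 through 9.58 to 12.66 in mutants and from 9.72 through 11.15 to 13.52 in controls. It fell and was lower in 8 of 8 pairs. Its difference was −2.07 ± 0.34 (over probe sets, limma adjusted p = 0.00264, and 0.195 with genotype alone). The next, 1448107_x_at, fell likewise, with a difference of −2.14 ± 0.35 (adjusted p = 0.00226, and 0.185 with genotype alone). The dimmest, 1460050_x_at, stayed between 8.56 and 9.02 in mutants and between 8.69 and 9.0 in controls. Its difference was −0.02 ± 0.07 (adjusted p = 0.895). Across the 16 arrays, deviations from the group means correlated with the mean of the other 26 genes at r = 0.98 for both probe sets that fell, and at r = 0.62 and 0.40 for the brightest and the dimmest. Choosing the brightest probe set thus placed Klk1 among the 5 genes not called. The suffix x_at marks probe sets that may also bind other transcripts, and which transcripts those are was not examined. With the mean of its 4 probe sets Klk1 differed by −1.09 with genotype alone (adjusted p = 0.191).

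**Figure D2:**
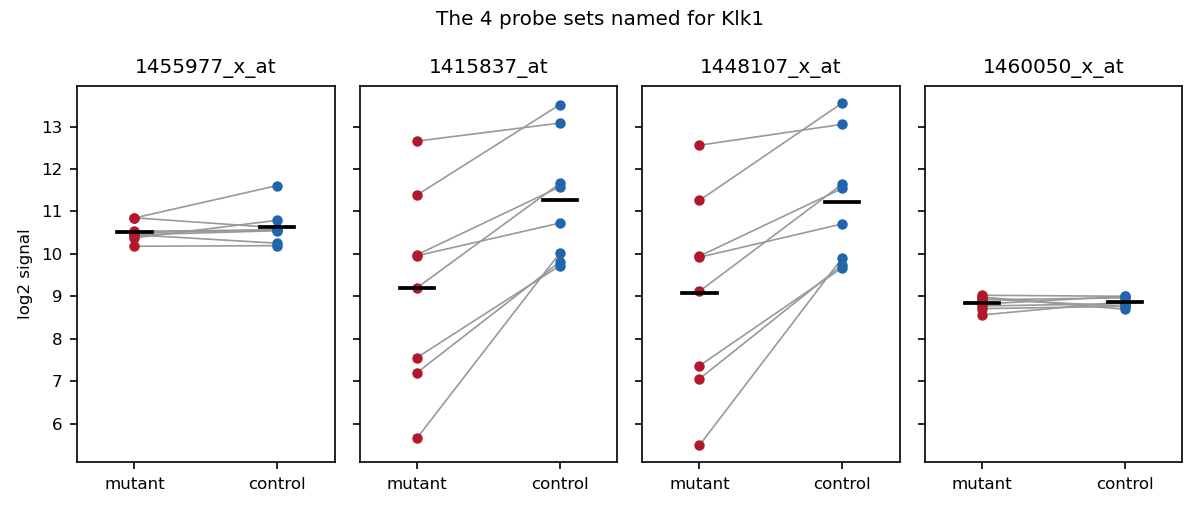
Log2 signal of the 4 probe sets named for Klk1 on mutant (left, red) and control (right, blue) arrays, with grey lines joining same-numbered arrays and black bars at the means. Mutant means lie below control means, with differences of −2.07 and −2.14, in the 2 middle panels, and the outer panels show −0.12 and −0.02.

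The Reg genes encode secreted lectin-like proteins of the pancreas that are known to be induced in pancreatic inflammation. Of the 4, Reg1 and Reg2 fell with the block. Reg1 ran from 6.77 through 11.33 to 14.08 in mutants and from 11.06 through 12.46 to 14.28 in controls (−1.84 ± 0.46, limma adjusted p = 0.0186, and 0.263 with genotype alone). Its call was lost without pair 4 (adjusted p = 0.0509). It followed the enzymes closely, with r = 0.98 to the mean of the other genes.

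Reg2, Reg3a and Reg3b followed the enzymes less closely, with r = 0.81, 0.66 and 0.86. Reg2 had the largest difference of the 27, −2.39 ± 0.48 (limma adjusted p = 0.00601, and 0.273 with genotype alone), and ran from 5.81 through 9.13 to 12.32 in mutants and from 7.04 through 12.54 to 13.80 in controls. Its controls split widely: replicates 1, 2, 3 and 5 read 13.45 to 13.80, replicate 4 read 11.62, and replicates 6, 7 and 8 read 9.25, 7.82 and 7.04. In pair 7 it was higher in the mutant. Without pairs 1 to 3 its paired difference was −2.34 and its adjusted p 0.0501. Reg3b ran from 3.62 through 9.03 to 11.70 in mutants and from 4.31 through 10.59 to 12.62 in controls, with a difference of −1.61 ± 0.57 that was not called (adjusted p = 0.078, and 0.618 with genotype alone). Its difference was −5.77 in pair 4 and 1.31 in pair 7. On this probe set its within-group SD of 3.4 was the highest of all 18193 genes. The other Reg3b probe set, which was less bright, differed by −0.98 ± 0.36 with the block (limma adjusted p = 0.115 over probe sets). There the mutant array was lower in 5 of 8 pairs, and the lowest pair difference was −2.38, in pair 2. Reg3a, at 4.84, 5.23 and 7.52 as lowest, median and highest in mutants and 4.78, 6.5 and 9.41 in controls, differed by −1.16 ± 0.38 and was not called (adjusted p = 0.0565, and 0.323 with genotype alone).

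The regulators were dim and read near or below the array medians on most arrays, and the Ptf1a median in mutants lay below every array median. Ptf1a ran from 5.18 through 5.47 to 8.25 in mutants and from 5.65 through 6.27 to 8.90 in controls, and fell by 0.77 ± 0.17 with the block (limma adjusted p = 0.00826, and 0.468 with genotype alone). Replicate 1 of the mutants and replicates 1 and 2 of the controls stood above all others, and these arrays were also among the highest for the enzymes. Rbpjl lay between 5.74 and 6.79 in mutants, with a median of 6.06, and between 5.82 and 6.91 in controls, with a median of 6.32. Its difference of −0.22 ± 0.10 was not called (limma adjusted p = 0.178, and 0.477 with genotype alone).

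**Figure D3:**
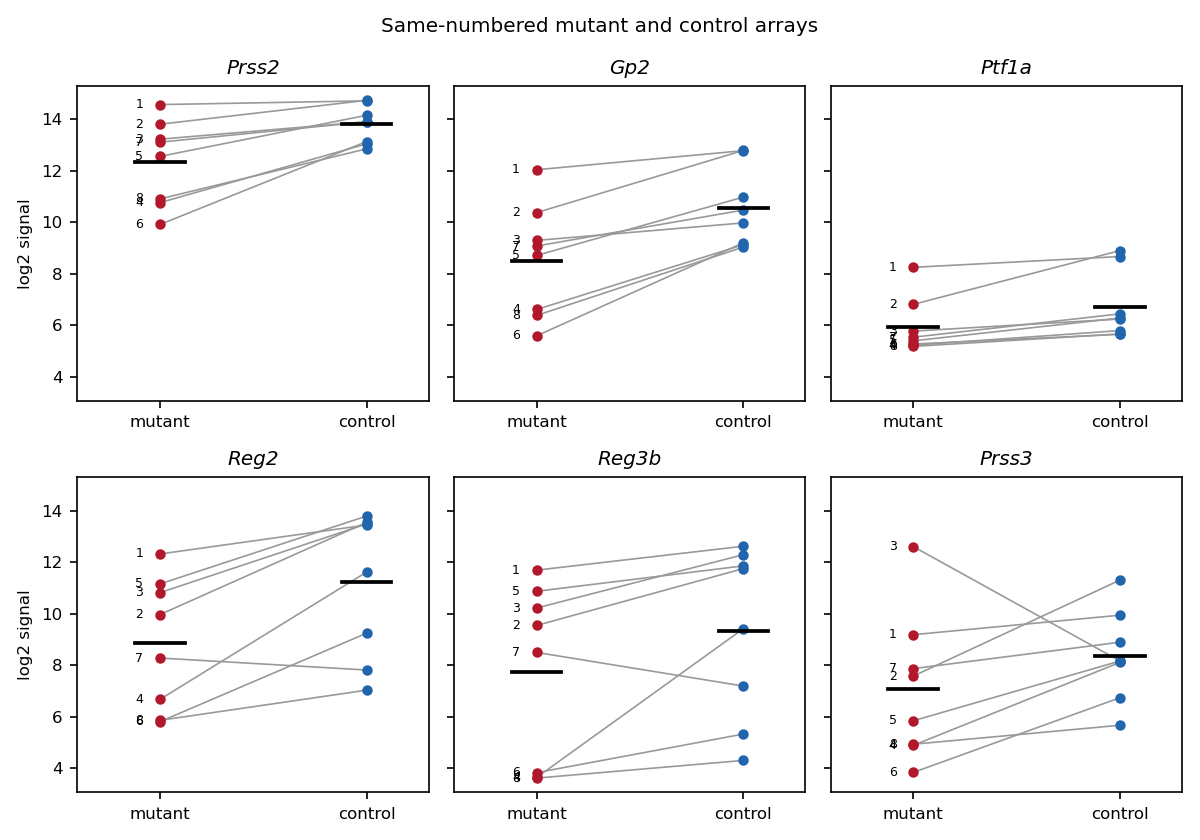
Log2 signal of 6 genes on mutant (left, red) and control (right, blue) arrays. Grey lines join same-numbered arrays, the small digits give the replicate number, and black bars are means of 8 arrays. Prss2, Gp2 and Ptf1a slope the same way in all 8 pairs, Reg2 and Reg3b are higher in the mutant of pair 7, and Prss3 is 4.44 higher in the mutant of pair 3.

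Acinar signal varied widely between preparations of the same genotype. The within-group SD of the 27 genes had a median of 1.46, against 0.16 over all genes, and 25 of the 27 exceeded the 99th percentile of all genes (0.90), all but Klk1 and Rbpjl. Within pairs the median SD of the 27 was 0.80, against 0.13 over all genes. The standard errors of 18 enzyme and granule genes (all but the Reg genes, the regulators, Amy1, Prss3 and Klk1, a grouping made after the values were seen) were 0.24 to 0.38 with the block and 0.57 to 0.86 with genotype alone. The differences of these 18 ran from −2.03 to −1.34.

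**Figure D4:**
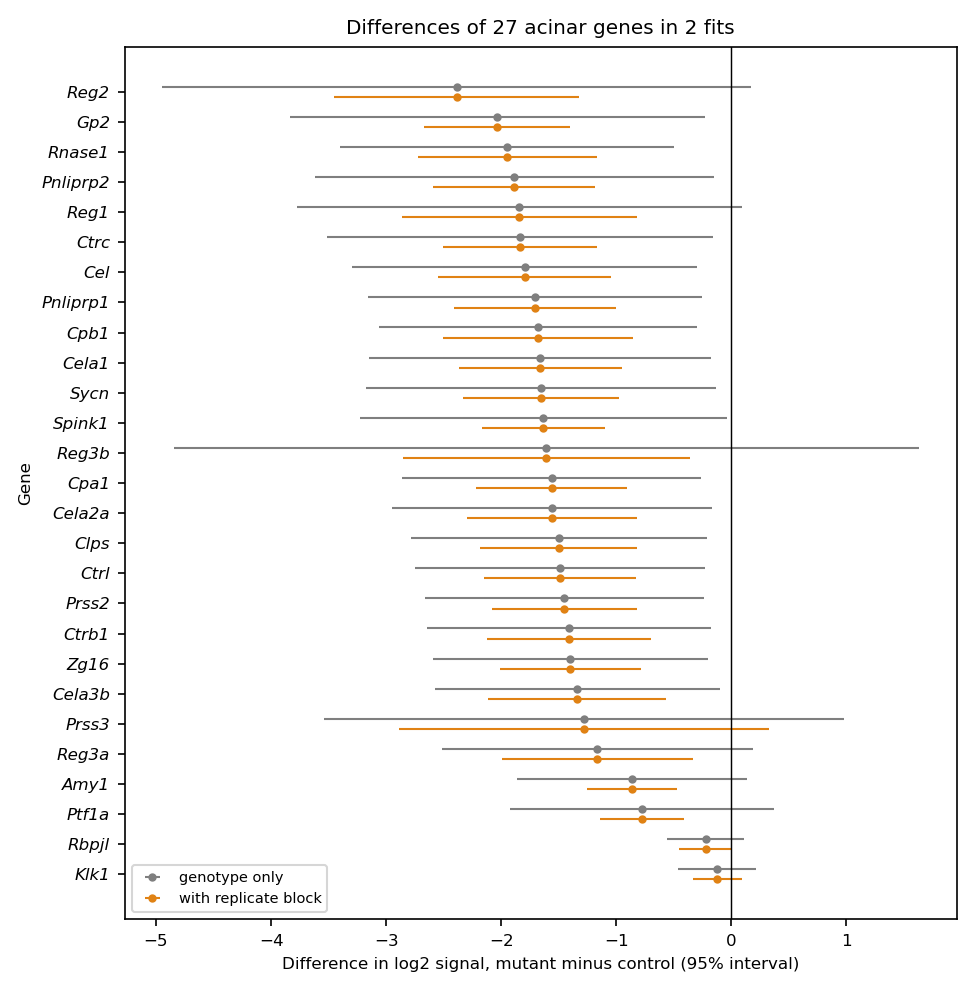
Difference in log2 signal, mutant minus control, of the 27 genes with 95% intervals, from the fit with genotype alone (grey) and with the replicate block (orange). The points coincide and lie below 0 for all 27 genes, and the intervals are narrower with the block, where those of Prss3, Klk1 and Rbpjl still reach 0.

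Deviations from the group means followed the mean of the other 26 genes at r over 0.9 for 19 of the 27 genes, with a median of 0.97 and a lowest value of 0.62 for Klk1. Outside the 33, 6 genes exceeded 0.9 with the mean of the 27: Cuzd1, 2210010C04Rik, Pdia2, Dmbt1, Pla2g1b and Reg3d, at 0.96 to 0.91. Pla2g1b encodes the pancreatic phospholipase A2 and Pdia2 a pancreatic protein disulphide isomerase. The next by this measure were Tff2, Adgrg6, Serpini2, C730049O14Rik, Cd300lf and Cckar, at 0.89 to 0.84. Of these 12, the 9 other than Adgrg6, C730049O14Rik and Cd300lf fell with the block, with differences of −1.96 for Cuzd1 to −1.14 for 2210010C04Rik. Adgrg6 and C730049O14Rik varied with the acinar signal within groups but differed by 0.31 ± 0.14 and 0.37 ± 0.19 between them, and Cd300lf by 0.06 ± 0.08 (limma adjusted p = 0.154, 0.208 and 0.66 with the block). These likenesses over 16 arrays are descriptions, and all the genes share the same preparations.

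The 21 measured further acinar genes, none of them among the 33, had a median difference of −0.74. With the block 12 fell and 0 rose, and with genotype alone 2 fell, Bhlha15 and Gnmt. Over all genes 9.71% were called lower with the block and 4.66% with genotype alone. Cuzd1 ran from 6.12 through 8.43 to 11.77 in mutants and from 8.79 through 9.89 to 12.87 in controls, and fell with the block (limma adjusted p = 0.000641, and 0.166 with genotype alone). Pdia2, Serpini2, Cckar, the cholecystokinin receptor that triggers enzyme release, and Pla2g1b fell with the block, with differences of −1.72, −1.43, −1.3 and −1.41. None of these 4 was called with genotype alone (limma adjusted p = 0.205, 0.242, 0.317 and 0.319). Nupr1, a stress-response gene, fell by 0.93 ± 0.11 with the block (limma adjusted p = 0.000194), while with genotype alone the SE was 0.52 and the adjusted p 0.328, and its r with the mean of the 27 was 0.36. Bhlha15, encoding the acinar secretory regulator MIST1, ran from 9.87 through 10.62 to 10.97 in mutants and from 10.32 through 11.19 to 11.26 in controls and fell by 0.53 ± 0.16 with genotype alone (limma adjusted p = 0.0399), but leaving out a single array ended that call in 11 of 16 cases, which were replicates 1, 2, 5 and 6 of the mutants and 2 to 8 of the controls, with adjusted p up to 0.0813. Its deviations ran against those of the 27 genes (r = −0.59), unlike Cuzd1 (r = 0.96). With the mean of its probe sets in place of the brightest, Bhlha15 differed by −0.33 with genotype alone (limma adjusted p = 0.0364). Gnmt, a glycine methyltransferase gene, fell by 0.74 ± 0.16 with genotype alone (limma adjusted p = 0.00763), with r = 0.31.

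Markers of other cells were read beside the acinar genes. The mean of 11 immune-cell markers was 6.24 to 8.98 on mutant arrays and 6.3 to 7.96 on control arrays. Among the mutants it was highest in replicates 1, 3 and 2 (8.98, 8.53 and 7.49), which also had the highest acinar means of the mutants (12.47, 11.13 and 11.34). Among the controls it was highest in replicates 1 and 6 (7.96 and 6.90), with acinar means of 12.8 and 10.44. Control replicate 2, with the highest acinar mean (12.97), had an immune-cell mean of 6.41. When the immune-cell mean entered the genotype fit as a covariate, 19 of the 27 genes were called lower, against 4.72% of all genes, with a median of −2.08. Without pairs 1 to 3 the block called 22 of 27 lower, against 6.02% of all genes, with a median of −2.04. The mean of 10 duct markers was 7.05 to 7.36 on mutant arrays and 7.25 to 7.51 on control arrays, with 1 of 10 called lower and 2 higher with the block. Of 10 stellate and fibroblast markers 1 fell and 4 rose with the block, and of 8 endothelial markers 0 were called in either direction. Over all genes 9.71% were called lower and 7.88% higher with the block, and 4.66% and 4.1% with genotype alone. Of the 9 beta-cell markers 7 fell in both fits, and their mean was lower in the mutant array of all 8 pairs, with no overlap between groups. The mean of 4 alpha-cell markers was 11.36 to 11.88 on mutant arrays and 11.01 to 11.44 on control arrays, higher in the mutant array of all 8 pairs, and 2 of the 4 rose in both fits. The part of these cell types in the acinar differences was not tested.

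The 3′ minus 5′ signal, averaged over control probe sets for beta-actin and Gapdh, a measure of RNA integrity, was 0.28 to 0.47 on mutant arrays and 0.33 to 0.57 on control arrays, and every pair had the lower value on its mutant array. With this measure as a covariate in the paired fit, 0 of the 27 genes were called, the median difference was −1.62, and 238 genes were called over all, against 3200 without it. The part of RNA integrity in the differences was not tested further.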

How the data were processed

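RNA from whole islet preparations of 8 mutant and 8 control mice was labelled with a 3′ IVT kit and hybridised to Affymetrix arrays, 1 array for each preparation, per the labels' protocols. The deposited values are log2 signals per probe set. For background correction, summarisation and normalisation by the authors, the method is not given in the sources used here. A base of log2 was judged from the range. No rescaling was applied.

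Of 45101 probe sets, 64 were controls, 34945 named 1 gene, 932 several and 9160 none in GEO's platform annotation. Symbols were updated through gene identifiers for 34741. The brightest probe set represented each of 18193 genes. Members, lists and tests were chosen with earlier results of these data known.

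The genotype effect was fitted in limma (version 3.58.1, R version 4.3.3) by lmFit and eBayes with a trend, two-sided, with no filter on dim genes, on all genes at once. Probe sets were also tested singly, 45037 in all. On simulated data for this comparison, 18193 genes with genotype alone, 87 of 100 genes changed 1.5-fold and 98 of 100 changed 3-fold were recovered, and 96 and 98 with the replicate block. The changed genes were drawn at random from all genes, with a median within-group SD of 0.16, against 1.46 for the 27. Recovery for genes as variable as the 27 was not examined. The paired simulation assumed a fixed share of variance common to each pair. Of the calls, 7.5% with genotype alone and 4% with the block were genes not changed. Per-array values are given for the largest and smallest difference in each role class, all Reg genes and both regulators. The other genes named are the 8 further acinar genes with the lowest p in the paired fit and the 12 genes most like the mean of the 27.

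The replicate number was taken to pair arrays because deviations from the group means correlated between same-numbered arrays in all 8 pairs (0.237 to 0.735). Between other numbers the median was −0.10, a value that centring each group on its own mean pulls below 0. Of the 16 arrays, 13 correlated best with the array of their own number in the other group. What the number marks is not stated in the labels. The p-values set each difference against the spread between these preparations, with genotype alone, or against the spread left within pairs, with the block. The number of arrays limits the precision.

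The alternatives were the replicate block, quantile normalisation, median centring, averaged probe sets, leaving out dim genes, no variance trend, array weights, leaving out each array or pairs 1 to 3, and the immune-cell or further acinar mean as a covariate. Chosen after seeing the data were the block without pairs 1 to 3 or any 1 pair, and the 3′ minus 5′ covariate.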

Additional observations from a re-analysis of the deposited data

Results flagged for a closer look

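In 2 of 66 groups of 8 arrays examined, 1 array stood far from the nearest other relative to the range of its group, and chance alone gives this in about 1 in 20 groups. The chosen Klk1 probe set read 11.61 on control replicate 2, where its other control arrays lay at or below 10.79. Reg3a read 7.52 on mutant replicate 1, where its other mutant arrays lay at or below 5.97. Both arrays had high signal for the enzymes as well, with acinar means of 12.97 and 12.47.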

How the results depend on the processing

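No array or scaling alternative turned the direction of a called gene. All 27 acinar genes (23 where dim genes were left out) were lower in the mutant under each alternative without a covariate, except Klk1 without control replicate 2. With the further acinar mean as a covariate, 21 were lower, and the median difference was −0.34 with 0 called. With the block and this covariate together, 22 were lower, the median difference was −1.02, and 0 were called, against 22 with the block alone. The cause of these shifts was not tested. With the 3′ minus 5′ covariate 0 were called, with and without the block, and Klk1 (with the block also Reg3a) lay above 0. Without the block, 1064 of all 18193 genes were called in either direction with this covariate, and 2390 with the further acinar mean. The number of acinar genes called lower was 0 with genotype alone, 22 with the replicate block, 22 with the block and the immune-cell mean or without pairs 1 to 3, 20 to 23 with the block without any 1 pair, and 0 with the block and either the further acinar mean or the 3′ minus 5′ signal. Without the block it was 1 with array weights, 3 without pairs 1 to 3, 19 with the immune-cell mean and 0 to 2 without any 1 array. The 2 genes called without mutant replicate 1 were Cel and Rnase1. None was called higher under any alternative. The median difference was −1.90 to −1.14 without any 1 array, and −1.74 to −1.31 in the paired fits without 1 pair.

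Further acinar genes called lower numbered 2 with genotype alone, 12 with the block (also without pairs 1 to 3), 11 with the block and the immune-cell mean, 11 to 13 without 1 pair, 7 with the immune-cell mean, 4 without pairs 1 to 3 and 1 to 2 without 1 array. They numbered 0 with the 3′ minus 5′ covariate, with or without the block, and with the block and the further acinar mean. Over all genes 1594 were called in either direction, 3200 with the block and 2539 with the block and the immune-cell mean. With the block but without pair 1 to pair 8 in turn, 2800, 2574, 2867, 2581, 2666, 2667, 2737 and 2829 were called. The count was 202 with the block and the further acinar mean, and 238 with the block and the 3′ minus 5′ signal. Without the block it was 828 without pairs 1 to 3 and 1324 to 1645 without 1 array. Signals near the background or near the top of the scale can understate differences.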
